A study of Mus musculus with 8 samples.

Results

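Carbonic anhydrases were examined in the ribosome-associated mRNA of cortical PV+ interneurons, the fast-spiking inhibitory cells named after the calcium-binding protein parvalbumin. The members were the 8 genes *Car2*, *Car4*, *Car7*, *Car8*, *Car10*, *Car11*, *Car12* and *Car14*, taken by name out of 45706 genes in the deposited tables. They were chosen with their difference between CNO-treated and vehicle-treated mice already known, so that difference was selected on and is described here by its size and spread. No p-value of a member is printed. Thresholds that members passed are named only beside the share over all genes tested, and nothing is read from them. All 8 genes had enough reads to pass the count filter, which kept 17495 genes by dropping those that fell short of 10 counts in at least 4 samples. A gene with under 10 counts in all 4 samples of a group is dropped by this filter, even where it is high in the other group.

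Libraries came from mice of the genotype PvalbFlp/+;Neurod6Cre/+, with 4 samples treated with CNO and 4 with vehicle. Every mouse, vehicle-treated mice included, received an AAV with a flox-fdio construct, which joins HA-RPL10a to myc-hM3Dq, in the primary somatosensory cortex (S1) as a pup, so both groups carried the tagged ribosomal protein RPL10A and the receptor hM3Dq, which raises neuronal activity when CNO is given. The construct, driven by the neuronal hSyn promoter, is switched on by Flp in cells that express or once expressed *Pvalb* and is inactivated by Cre in cells of the *Neurod6* lineage, which are mostly pyramidal cells. CNO (1 mg/kg) or vehicle was injected 5 times over about 48 h in mice aged 42 to 70 days, and each sample pooled S1 of 4 brains. Total counts ranged from 44064161 to 49413273 per sample, so that 3 counts, taken as the lowest level the depth can show, were 0.0607 to 0.0681 CPM (counts scaled by library size). Only counting error is covered by this floor, and the CPM of genes given below are also TMM-normalized, which the floor is not. *Fos*, an immediate early gene induced by neuronal activity, had 61.2 ± 21.0 TPM (SD, n = 4) in CNO samples and 17.0 ± 2.97 TPM (SD, n = 4) in vehicle samples, and the groups did not overlap. TPM is a level corrected for transcript length and scaled to the same total in every sample.

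Carbonic anhydrases are zinc enzymes that speed the conversion of carbon dioxide and water into bicarbonate and a proton. In neurons and glia they buffer the pH changes that accompany firing, and in neurons cytosolic isoforms supply the bicarbonate that flows out through GABA-A receptors. The mammalian family includes cytosolic enzymes, membrane enzymes that face the extracellular space, and related proteins that keep the fold but lack catalytic activity. Of the genes described here, *Car2* and *Car7* encode cytosolic enzymes, *Car4* encodes an enzyme held to the cell surface by a GPI anchor, and *Car12* and *Car14* encode transmembrane enzymes with an extracellular catalytic domain. *Car8*, *Car10* and *Car11* encode the related proteins.

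In *Car2* the zinc ion is held by histidines, of which 2 lie close together and 1 lies further on. The stretches below are shown because they set the zinc site of 3 enzymes beside its counterpart in 2 related proteins. They are coding sequence in the sense direction, from the transcript of each gene with the longest coding sequence in GENCODE mouse release 21 (bases 349 to 447 of the coding sequence for *Car12*), and capitals mark the 3 codons that align with the zinc-binding histidine codons of *Car2* (CAC or CAT encodes histidine).
Car2: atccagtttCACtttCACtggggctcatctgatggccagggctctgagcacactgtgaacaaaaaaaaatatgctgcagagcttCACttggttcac
Car7: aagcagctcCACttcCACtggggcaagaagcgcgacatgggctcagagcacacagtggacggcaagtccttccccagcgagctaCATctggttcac
Car12: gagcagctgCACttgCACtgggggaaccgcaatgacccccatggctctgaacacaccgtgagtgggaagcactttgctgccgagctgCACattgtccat
Car10: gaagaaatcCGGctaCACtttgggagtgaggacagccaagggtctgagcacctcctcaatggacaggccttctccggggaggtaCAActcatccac
Car11: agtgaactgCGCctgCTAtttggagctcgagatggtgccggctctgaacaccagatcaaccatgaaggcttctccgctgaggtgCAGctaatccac
Among the 7 genes compared at this site, with *Car8* left out, all 3 aligned codons encoded histidine in *Car2*, *Car4*, *Car7*, *Car12* and *Car14*. In *Car10* 1 of the 3 did and in *Car11* 0. Over the aligned protein sequences translated from these transcripts, *Car10* and *Car11* were the closest pair, with 56.7% identity over 305 aligned residues. *Car2* and *Car7* shared 55.0% over 260 residues, and the transmembrane enzymes *Car12* and *Car14* shared 43.0% over 335 residues. The lowest identity was 25.3%, between *Car4* and *Car10*.

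The genes lie at separate places in the mouse genome (build GRCm38), apart from *Car2* and *Car14* on the same chromosome and *Car4* and *Car10* on another. *Car12* spans chr9:66713686-66766845 on the plus strand, with 6 annotated transcripts of which 3 are protein-coding. *Car2* spans chr3:14886273-14900770 and *Car14* spans chr3:95897768-95904691, the latter on the minus strand. *Car4* is at chr11:84957786-84966044, *Car10* at chr11:93098028-93601749, *Car7* at chr8:104534689-104550343 and *Car11* at chr7:45699843-45704682, all on the plus strand, and *Car8* is at chr4:8143362-8239041 on the minus strand. *Car14* overlaps *Aph1a*, which encodes a subunit of gamma-secretase and lies on the opposite strand. The counting is not stated to use strand, so reads from the overlap of *Car14* and *Aph1a* cannot be told apart. *Car8* overlaps a pseudogene and a small RNA gene, and *Car10* overlaps a small RNA gene. Between 0% and 1.15% of the 31-base stretches of each gene's transcripts occurred in transcripts of other genes. These stretches were compared in the sense direction only, so an overlap on opposite strands, like that of *Car14* and *Aph1a*, is not counted in them.

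The family was dominated by a cytosolic enzyme and related proteins. Over the 8 samples *Car11* had the highest level, with 167 ± 22.2 TPM (SD, n = 8), followed by *Car2* with 151 ± 10.9 TPM and *Car10* with 96.2 ± 28.3 TPM. The neuronal cytosolic enzyme *Car7* had 39.5 ± 4.74 TPM, *Car4* 35.5 ± 5.07 TPM and *Car14* 12.1 ± 3.61 TPM. *Car12*, with 2.97 ± 1.18 TPM, and *Car8*, with 2.15 ± 0.492 TPM, were the lowest. In vehicle samples the level of *Car11* was above that of 95.0% of tested genes, that of *Car7* above 72.3%, that of *Car12* above 30.2% and that of *Car8* above 24.0%.

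**Figure D1:**
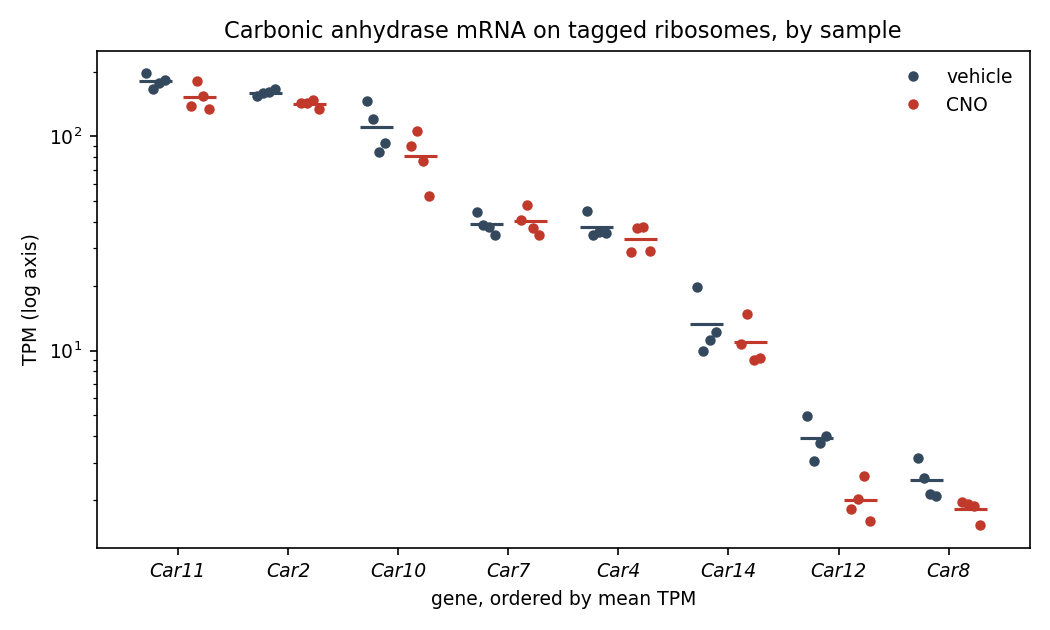
TPM (log axis) of the 8 carbonic anhydrase genes in each sample, ordered by mean level. Points are the 4 vehicle and 4 CNO samples of each gene and horizontal lines are group means, and only *Car2*, *Car12* and *Car8* show CNO points that all lie below the vehicle points.

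Some neighbours in this order were not separated by the samples. *Car7* was above *Car4* in 5 of 8 samples, and in 2 of 4 vehicle samples. *Car11* exceeded *Car2* in 7 of 8 samples and *Car12* exceeded *Car8* in 7 of 8, whereas each of the other steps in the order held in 8 of 8. The summed level of 16 carbonic anhydrase genes ranged from 402 to 619 TPM, and *Car2*, *Car10* and *Car11* together supplied 79.7% to 82.7% of it in every sample. The related proteins *Car8*, *Car10* and *Car11* supplied 47.1% to 55.9%, and *Car12* supplied 0.375% to 0.801%. The other 8 genes of the family, *Car1*, *Car3*, *Car5a*, *Car5b*, *Car6*, *Car9*, *Car13* and *Car15*, therefore supplied little of the sum, since the members held 99.0% to 99.2% of it.

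A single vehicle sample stood apart in its cell type markers. In vehicle replicate 1 12 markers of PV+ interneurons had a mean log2 CPM that differed by -1.35 from that of the other 3 vehicle samples, and *Pvalb* itself was at 99.7 CPM against 329 to 390 CPM in those samples. In the same sample the markers of oligodendrocytes were 0.29 higher, those of microglia 0.30 higher, those of astrocytes 0.18 higher and those of pyramidal cells 0.17 higher on the log2 scale, and those of endothelial cells differed by -0.39. The carbonic anhydrases split in that sample. *Car14* was 0.70 higher on the log2 CPM scale, *Car10* 0.43, *Car8* 0.38 and *Car4* 0.33, while *Car2* differed by -0.25 and *Car12* by -0.08. The part of this sample's makeup in the levels of these genes was not tested, and the difference of each of the 8 genes below is also given without it.

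**Figure D2:**
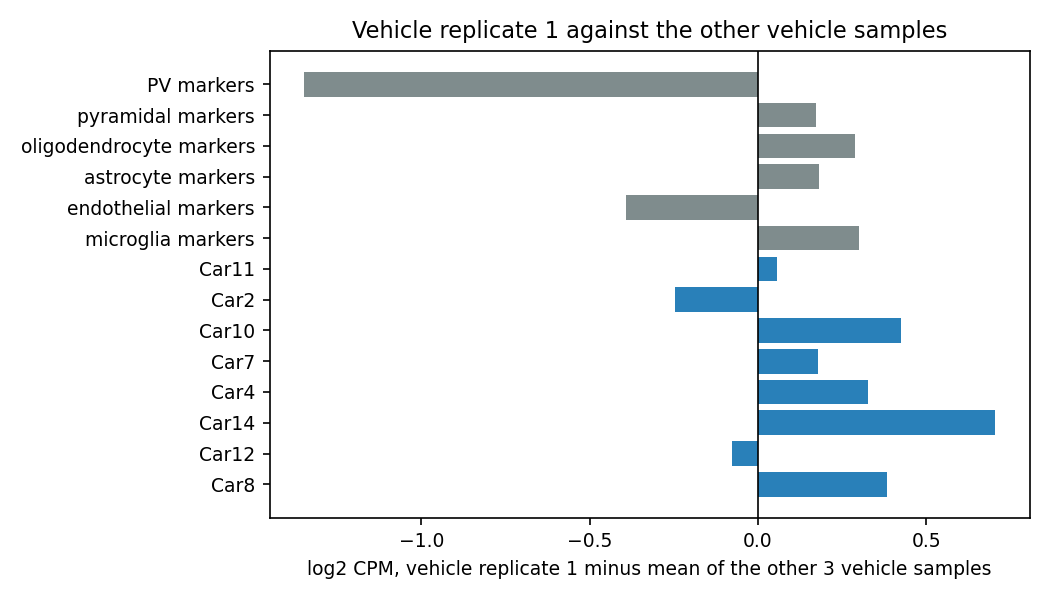
Difference in log2 CPM between vehicle replicate 1 and the mean of the other 3 vehicle samples. Grey bars are means over marker lists, with PV markers at -1.35, and blue bars are the carbonic anhydrases, which run from -0.25 (*Car2*) to 0.70 (*Car14*).

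Among the 8 genes, 7 were lower and 1 was higher in CNO samples. The median log2 fold change of the 8 genes was -0.18, against 0.0014 over all 17495 genes tested. Without vehicle replicate 1, 6 were lower and 2 higher, with a median of -0.16. The largest difference by far was that of *Car12*. In edgeR's quasi-likelihood test with Benjamini-Hochberg adjustment, a 1.5-fold cut-off and a mean TPM above 1, 0 genes were called (percentage of tested genes called: 0), among them 0 of the 8 members. *Fos* also missed the threshold of this quasi-likelihood test, with a log2 fold change of 1.93 and an adjusted p of 0.0520. That was the smallest adjusted p over all genes tested. At an unadjusted p under 0.05, 464 genes (2.65%) were lower, including *Car12* and *Car8*, and 252 genes (1.44%) were higher, with 0 of the 8. The Wald test of DESeq2 with the same cut-offs called 10 genes (0.0572%), of which 1 was a carbonic anhydrase, *Car12*, and the likelihood ratio test of edgeR with robust dispersion called 12 genes (0.0686%) with 0 of the 8. The CPM of the groups did not overlap, with CNO lower, for 285 genes (1.63%), *Car12* and *Car8* among them, and with CNO higher for 138 genes (0.789%), 0 of them carbonic anhydrases. On the TPM scale 445 genes (2.54%) were lower without overlap, and *Car2* joined *Car12* and *Car8*. As the genes were chosen with this contrast known, nothing is read from these counts of members.

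**Figure D3:**
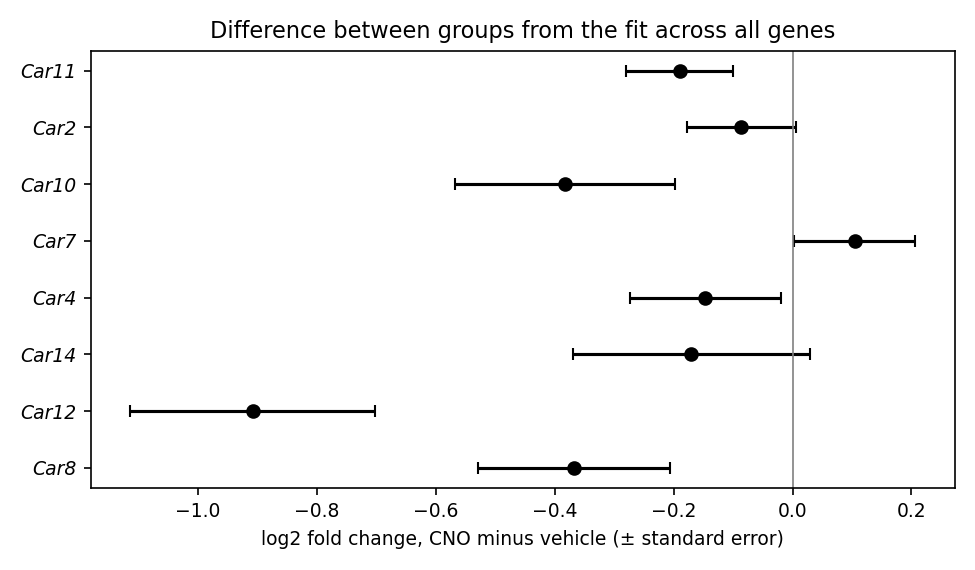
Log2 fold change of each gene, CNO minus vehicle, from the fit across all genes. Points are estimates, bars are ± 1 standard error, and genes are ordered by mean TPM, with *Car12* at -0.91 and *Car7*, at 0.10, alone above 0.

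*Car12*, whose transmembrane enzyme acidifies or buffers the space around the cell and is induced by hypoxia in many tissues, had 2.35, 2.24, 3.19 and 1.89 CPM in CNO replicates 1 to 4. In vehicle replicates 1 to 4 it had 4.29, 3.74, 4.22 and 5.91 CPM. All CNO samples lay below all vehicle samples, and the highest CNO value (replicate 3) was nearest to the lowest vehicle value (replicate 2). The means were 2.42 ± 0.550 CPM (SD, n = 4) with CNO and 4.54 ± 0.948 CPM (SD, n = 4) with vehicle, and the log2 fold change was -0.91 (SE 0.21), a fold of 0.533. Leaving out each sample in turn moved this log2 fold change between -1.08 (without CNO replicate 3) and -0.75 (without vehicle replicate 4), and it was -0.94 without vehicle replicate 1. The reads behind these values were few, with 90 to 149 estimated counts in CNO samples and 175 to 293 in vehicle samples.

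On the length-corrected scale *Car12* had 1.83, 2.02, 2.58 and 1.61 TPM in CNO replicates and 4.96, 3.06, 3.70 and 3.98 TPM in vehicle replicates. The groups were again apart, yet the order of the vehicle samples changed, because replicate 1 was highest in TPM and replicate 4 in CPM. The mean length of the *Car12* transcripts that the authors' quantification assigned, obtained from the ratio of counts to TPM, was 2124 bases in vehicle replicate 1 and 3460 bases in vehicle replicate 4. In the CNO samples it ranged from 2493 to 2820 bases, and the group means were 2663 ± 137 bases (SD, n = 4) with CNO and 2734 ± 563 bases (SD, n = 4) with vehicle. The ratio of the longest to the shortest value over the 8 samples was 1.63 for *Car12*, compared with 1.0004 to 1.10 for the other 7 genes. Among 2257 genes with a mean count of 100 to 300, the median ratio was 1.05, and 5.36% had a ratio at least as high as that of *Car12*. The annotated *Car12* transcripts are 614 to 3716 bases long, and which of them carried the reads was not analysed here. With these lengths as an offset, the log2 fold change of *Car12* was -0.88.

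**Figure D4:**
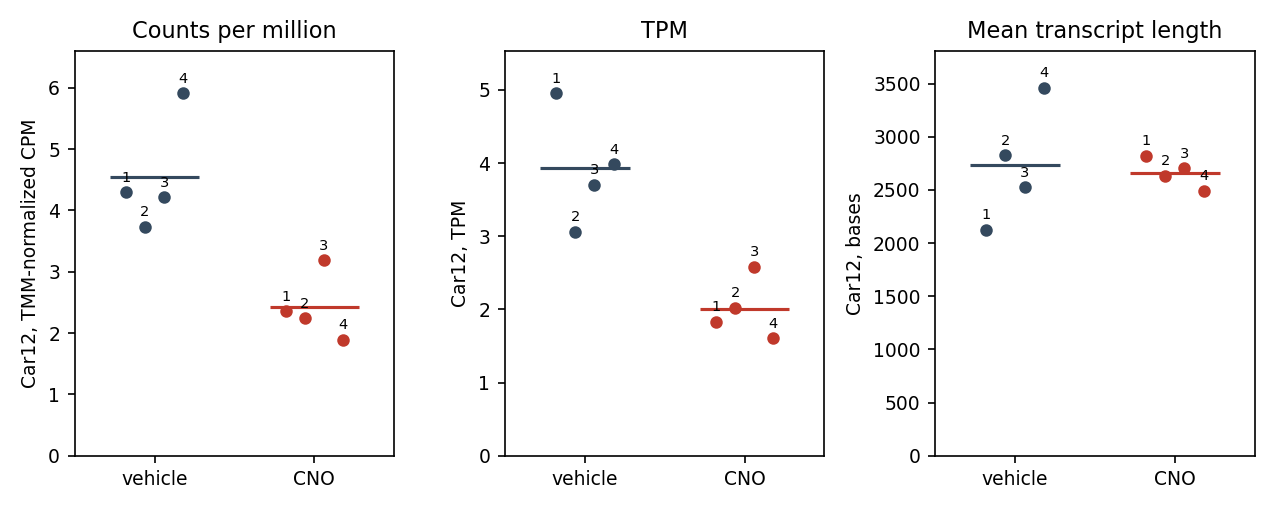
*Car12* in each sample as TMM-normalized CPM, as TPM and as mean transcript length in bases. Points are samples with their replicate number, lines are group means, and the groups are separate in CPM (1.89 to 3.19 against 3.74 to 5.91) and TPM but overlap in length, where vehicle replicates 1 and 4 are the shortest and the longest.

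The other transmembrane enzyme, *Car14*, did not show this separation. It had 5.89, 7.65, 5.38 and 5.32 CPM in CNO samples and 9.62, 5.38, 6.11 and 6.19 CPM in vehicle samples. Only vehicle replicate 1 lay above every CNO sample, and the remaining values were interleaved. The log2 fold change was -0.17 (SE 0.20) and changed sign without vehicle replicate 1, to 0.038. *Car4*, the GPI-anchored enzyme, had 12.4 to 16.9 CPM with CNO and 14.3 to 18.7 CPM with vehicle. Its log2 fold change was -0.15 (SE 0.13), and -0.061 without vehicle replicate 1.

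The cytosolic enzymes were the steadiest of the catalytic members. *Car2*, the major enzyme of oligodendrocytes and of many other cells, had 96.9, 91.2, 101 and 95.6 CPM in CNO samples and 89.5, 103, 109 and 106 CPM in vehicle samples. The groups overlapped only through vehicle replicate 1, the lowest of the 8, and the log2 fold change was -0.086 (SE 0.092), or -0.15 without that sample. On the TPM scale *Car2* had 143, 143, 148 and 134 with CNO and 154, 160, 160 and 166 with vehicle, with no overlap between groups. *Car7*, which is made by neurons, was the only gene with a higher mean in CNO samples. It ranged from 23.6 to 29.5 CPM with CNO and from 21.8 to 26.9 CPM with vehicle, and its log2 fold change was 0.10 (SE 0.10), or 0.15 without vehicle replicate 1.

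The mRNAs of the 3 related proteins had lower estimates with CNO, and those of *Car10* and *Car11* overlapped between groups. *Car8*, which encodes a protein known in Purkinje cells as a partner of the IP3 receptor, had 3.46, 3.11, 3.30 and 2.78 CPM in CNO samples. In vehicle samples it had 4.94, 4.21, 3.70 and 3.47 CPM. The groups were separate but touched closely, since CNO replicate 1 and vehicle replicate 4 were nearly equal. The log2 fold change of *Car8* was -0.37 (SE 0.16), or -0.27 without vehicle replicate 1.

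*Car10*, whose secreted protein binds neurexins, had 124, 133, 107 and 75.2 CPM in CNO samples and 176, 155, 117 and 125 CPM in vehicle samples. CNO replicate 4 was the lowest and vehicle replicate 1 the highest, and the other samples of the groups overlapped. The log2 fold change of *Car10* was -0.38 (SE 0.18), and it was -0.25 without CNO replicate 4 and -0.27 without vehicle replicate 1. The means were 110 ± 25.5 CPM (SD, n = 4) with CNO and 143 ± 27.5 CPM (SD, n = 4) with vehicle. *Car11*, its closest relative in sequence, had 80.2 to 95.6 CPM with CNO and 94.8 to 102 CPM with vehicle. Only CNO replicate 2 reached the vehicle range, and the log2 fold change was -0.19 (SE 0.090), or -0.18 without vehicle replicate 1.

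In spread between replicates the genes ranged from steady to variable. Within groups, the SD of log2 CPM was 0.32 for *Car10*, 0.31 for *Car14* and 0.29 for *Car12*. It was 0.18 for both *Car4* and *Car8* and 0.13 for *Car7*, and *Car2* (0.099) and *Car11* (0.092) were the steadiest. The genes whose log2 CPM, centred on their own mean, was nearest to *Car12* over the 8 samples were *Fgf23*, which encodes a phosphate-regulating hormone, *Mboat1*, *H3f3aos*, *Gm16386* and *RP23-38L11.3*. Their root mean square differences from *Car12* ran from 0.228 (*Fgf23*) to 0.271 log2 units, against a spread of 0.518 for *Car12* around its own mean. *Fgf23* had a mean of 1.31 TPM and a log2 fold change of -0.80 (SE 0.18). The search used all 8 samples, with the difference between groups included, so it favoured genes with a like difference, and the log2 fold changes of the 5 genes ran from -0.98 to -0.49. For *Car8* the nearest genes were *Ddit4l*, *Nudt16* and *Zfp326*, for *Car10* *Lnpep*, *Rgs6* and *Nrros*, and for *Car14* *Cep192*, *Psg16* and *RP24-500I24.4*, among 15172 candidate genes.

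Markers of other cell types were present in every sample beside those of PV+ interneurons. The summed level of the 12 pyramidal cell markers was 797 to 1070 TPM with CNO and 1000.2 to 1246 TPM with vehicle, and 10 of the 12 had lower estimates with CNO. For oligodendrocytes the sums were 588 to 1060 TPM and 817 to 1058 TPM, with 10 of 10 estimates lower, for microglia 58.8 to 96.2 TPM and 77.1 to 111 TPM, with 8 of 8 lower, and for astrocytes 538 to 636 TPM and 554 to 713 TPM, with 8 of 10 lower. The PV+ interneuron markers had sums of 2602 to 4074 TPM with CNO and 1246 to 3246 TPM with vehicle, and 12 of 12 estimates were higher, as were 10 of 10 for endothelial cells. The lowest vehicle sum of the PV+ markers was that of replicate 1, the other 3 lay between 2966 and 3246 TPM, and without replicate 1 11 of 12 estimates were higher and the median log2 fold change of the list was 0.16 in place of 0.40. The quasi-likelihood test called 0 of these markers, the smallest adjusted p being 0.817. It called 0 of all 17495 genes tested, so nothing is read from 0 among the markers. Fewer cells of a type, less RNA per cell and less carry-over of mRNA from untagged cells cannot be told apart in such samples. The part of these cells in the differences of the carbonic anhydrases was not tested. Choroid plexus epithelium, a tissue known for *Car12* and *Car2*, was represented by low levels. Of its 8 markers, 3 (*Kl*, *Kcnj13* and *Clic6*) passed the count filter, and 3 of 3 had lower estimates with CNO. The median log2 fold change of these 3 was -0.38 with all samples and -0.30 without vehicle replicate 1. The 8 markers summed to 2.29 to 3.37 TPM with CNO and 3.51 to 4.50 TPM with vehicle, sums that did not overlap. Without *Kcnj13* the sums did overlap, at 0.922 to 1.80 TPM with CNO and 1.32 to 1.90 TPM with vehicle. The most abundant marker, the potassium channel gene *Kcnj13*, overlapped between groups, with 1.48 ± 0.207 TPM (SD, n = 4) with CNO and 2.22 ± 0.488 TPM (SD, n = 4) with vehicle. The defining transcript *Ttr*, with at most 4 counts in a sample, averaged 0.111 TPM with CNO and 0.110 TPM with vehicle. *Otx2* was at 0 in all 8 samples.

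The other carbonic anhydrases were low. *Car3*, *Car5b*, *Car13* and *Car15* passed the count filter, with means of 1.61, 0.935, 0.484 and 1.17 TPM, and *Car1*, *Car5a*, *Car6* and *Car9* did not. The mitochondrial enzyme *Car5b* had a log2 fold change of -0.46 (SE 0.28, adjusted p = 0.817 by edgeR's quasi-likelihood test). *Car15* had a log2 fold change of 0.34, *Car13* 0.17 and *Car3* -0.20, and their adjusted p-values by the same test were 0.821, 0.883 and 0.853. The tested 4 genes thus split into 2 lower and 2 higher estimates, none past the threshold. *Car9*, the other hypoxia-induced transmembrane enzyme, averaged 0.029 CPM, which is under the floor.

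Carbonic anhydrases work beside transporters that carry the bicarbonate and protons they produce and channels and sensors that respond to them. Of 42 acid-base genes of these kinds, partner proteins of the transporters included, 33 passed the count filter. The quasi-likelihood test, the robust likelihood ratio test and DESeq2 each called 0 of them. These tests called 0 (0%), 12 (0.0686%) and 10 (0.0572%) of all 17495 genes, so nothing is read from 0 among the 33 acid-base genes. The estimates were higher with CNO for 14 and lower for 19, with a median log2 fold change of -0.057 against 0.0014 over all genes, and without vehicle replicate 1 they were higher for 16 and lower for 17, with a median of -0.0045. At an unadjusted p under 0.05, 0 were higher and 1 was lower. This was *Slc26a8*, an anion exchanger of the testis that was low here, with 2.19 ± 0.427 TPM (SD, n = 4) with CNO and 2.98 ± 0.419 TPM (SD, n = 4) with vehicle (log2 fold change -0.37, adjusted p = 0.817 by edgeR's quasi-likelihood test).

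The 4 abundant genes of that list described here did not pass the threshold. The log2 fold changes of *Bsg*, *Slc4a3* and *Slc4a10* moved by over 1.5 times without vehicle replicate 1, to 0.11, 0.020 and -0.041. *Bsg*, the chaperone that brings proton-lactate cotransporters to the membrane, had 490.1 ± 64.5 TPM (SD, n = 4) with CNO and 419 ± 101 TPM (SD, n = 4) with vehicle (log2 fold change 0.29), where replicate 1 was the lowest at 274 TPM. *Slc4a3*, a chloride-bicarbonate exchanger, had log2 fold change 0.085 and *Slc4a10*, a sodium-dependent bicarbonate transporter of neurons, had log2 fold change -0.10. The estimate was -0.19 for *Asic2*, a proton-gated channel subunit. The adjusted p-values of these 4 genes by edgeR's quasi-likelihood test lay between 0.817 and 0.837. The 8 tested sodium-proton exchangers had 4 higher and 4 lower estimates, and the 7 tested Slc4 bicarbonate transporters had 3 higher and 4 lower. Of the 8 tested Slc26 anion exchangers, 6 had lower estimates with all samples and 4 without vehicle replicate 1.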

How the data were processed

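Ribosome-associated mRNA from S1 was sequenced in 4 CNO and 4 vehicle samples, described by the study as biological replicates. p-values measure the spread between these pooled samples only. Before deposit, the authors used Trim Galore for trimming, STAR for alignment to GRCm38, and Salmon with tximport to quantify genes. They deposited estimated counts per gene, unscaled, and TPM. Strand handling is not given in the sources used here.

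Counts were rounded, filtered and TMM-normalized, and the groups were compared in edgeR 4.0.16 (R 4.3.3) by the quasi-likelihood test, with p-values adjusted by the Benjamini-Hochberg method over 17495 genes. Calls required over 1.5-fold change, mean TPM above 1 and adjusted p below 0.05. The study's methods name edgeR's robust dispersion without a test, and elsewhere the study gives a Wald test, not among edgeR's tests. The robust dispersion was run with the likelihood ratio test as an alternative, as were DESeq2 1.42.0, limma 3.58.1 on log2(TPM + 1) and log2(TPM + 0.1), other size factors, count filters and blocks, and each sample left out. An offset for transcript length was chosen after seeing the data. The test was tried on simulated data.

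The members and lists were chosen with earlier results of these data known. Named genes were the members, the other carbonic anhydrases, the 5 most abundant acid-base genes (1 of them not reported here) and any at an unadjusted p under 0.05, *Fos*, leading marker genes, and the nearest genes by log2 CPM (5 for *Car12*, 3 for each other member with an SD above the median). *Ttr*, *Otx2*, *Kl* and *Clic6*, and the choroid plexus sum without *Kcnj13*, were added after values were seen. Gene models were GENCODE mouse release 21, and mean transcript length was counts divided by TPM, scaled on 450 genes with a single transcript. Sequences were aligned with Biopython 1.88.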

Additional observations from a re-analysis of the deposited data

How the results depend on the processing

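The difference of *Car12* kept its direction under every alternative tried. With all 8 samples its log2 fold change ran from -0.96 (library size only) to -0.71 (limma on log2(TPM + 1)). With a sample left out it ran from -1.08 to -0.75. The genes were chosen with this contrast known and the *Car12* groups did not overlap, so nothing is read from the kept direction. *Car14* reversed to 0.038 without vehicle replicate 1 and was otherwise as low as -0.30 (without CNO replicate 2) with a sample left out. The number of genes called, 0 with the quasi-likelihood test, was 12 with robust dispersion and the likelihood ratio test, 10 with DESeq2, 4 with no count filter, 3 with replicates 1 and 2 against 3 and 4 as a block, and 0 to 2 with each sample left out (2 without CNO replicate 1). The causes were not tested. Acid-base genes called stayed at 0 under all alternatives, where at most 12 of all genes tested were called. The acid-base list's median log2 fold change ran from -0.15 to -0.036, and from -0.10 to 0.016 (without CNO replicate 4) with samples left out.

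Deviations of same-numbered samples from their group means correlated at 0.026, -0.030, 0.16 and 0.24, so the numbers were not taken to pair samples. With the replicate block, *Car12* had a log2 fold change of -0.91 and the acid-base list a median of -0.050. The low counts of *Car12* and *Car8* limit the precision of their values.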
